A study of Mus musculus with 12 samples.

Results

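The expression of 10 genes that mark Langerhans cells and conventional dendritic cells (cDCs) was examined in Mo-Mac (monocyte-macrophage) fractions of allergic mouse skin. The members were the rows of the expression table with the symbols Cd207, Epcam, Ly75, Cd24a, Dpp4, Zbtb46, Xcr1, Clec9a, Batf3 and Relb, which are 10 of its 37775 genes. All 10 passed the expression filter, as did 22118 genes in all. The fractions were compared to see which dendritic genes accompany each step from monocyte to macrophage and the resident-like cells.

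IgE-CAI is a model of IgE-dependent chronic allergic skin inflammation, in which mice receive 300 μg of TNP-specific IgE and then 10 μg of TNP-OVA in ear skin. All 12 libraries came from lesions of male WT BALB/c mice, 7 to 12 weeks old, on day 5, so that strain, genotype, IgE and allergen were shared by all groups, and no unchallenged skin was among them. CD45+CD11b+SiglecF-Ly6G- cells were sorted into Ly6ChiPD-L2lo classical monocytes, Ly6ChiPD-L2hi early CMDMs (classical monocyte-derived macrophages), Ly6CloPD-L2hi late CMDMs and Ly6CloPD-L2lo resident-like macrophages, with 3 libraries per fraction and 5000 to 80000 cells per library. The gate named neither CD11c nor MHC class II. Nothing in the labels says that the libraries came from separate animals, so that the p-values measure the spread between these samples, which may be technical.

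Langerhans cells are the dendritic cells of the epidermis. They carry the lectin langerin (CD207), found in Birbeck granules, together with the adhesion molecule EpCAM, the endocytic receptor DEC-205 (LY75) and CD24, and they share a macrophage-like origin and a need for TGF-β and CSF1R signals. Conventional dendritic cells arise from FLT3-dependent precursors that express the transcription factor ZBTB46. Their cDC1 branch, which depends on BATF3 and IRF8, carries the chemokine receptor XCR1 and the receptor for dead cells CLEC9A, and in the skin also langerin. The cDC2 branch depends on IRF4 and, in part, on the NF-κB subunit RELB.

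The stretch before the start of transcription is shown for the langerin gene, Clec9a and Dpp4. The langerin gene was highest in resident-like macrophages, and the others in classical monocytes. After leukocyte scaling, a check described further on, Dpp4 in classical monocytes was not above early CMDMs. The letters upstream of genes that peak in different fractions can so be compared. Like Cd207, Dpp4 was higher in resident-like macrophages than in late CMDMs on both scales, so that their patterns are not opposite. Each stretch is the 250 bases upstream of the RefSeq start in GRCm38.p6, written 5′ to 3′ on the gene's own strand. Cd207 lies at chr6:83671215-83677857 on the minus strand and its window at chr6:83677858-83678107. Dpp4 lies at chr2:62330073-62412231 on the minus strand, with the window at chr2:62412232-62412481. Clec9a lies at chr6:129408862-129424763 on the plus strand, with the window at chr6:129408612-129408861. Capitals mark matches, on either strand, to 5 short motifs: PU.1 (GAGGAAG), RUNX (TGTGGTT), AP-1 (TGANTCA), NF-κB (GGGA and TTCC with any 2 bases between) and IRF (GAAA and GAAA with any 2 bases between).
Cd207: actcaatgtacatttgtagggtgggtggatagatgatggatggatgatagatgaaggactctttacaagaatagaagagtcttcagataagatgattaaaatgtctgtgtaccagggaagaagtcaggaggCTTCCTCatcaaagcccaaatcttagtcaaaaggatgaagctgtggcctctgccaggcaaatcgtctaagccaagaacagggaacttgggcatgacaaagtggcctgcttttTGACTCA
Dpp4: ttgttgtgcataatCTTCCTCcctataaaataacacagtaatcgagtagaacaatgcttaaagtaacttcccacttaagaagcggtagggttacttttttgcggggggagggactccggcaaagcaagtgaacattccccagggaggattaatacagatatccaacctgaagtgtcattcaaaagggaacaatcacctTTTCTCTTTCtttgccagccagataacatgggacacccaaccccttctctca
Clec9a: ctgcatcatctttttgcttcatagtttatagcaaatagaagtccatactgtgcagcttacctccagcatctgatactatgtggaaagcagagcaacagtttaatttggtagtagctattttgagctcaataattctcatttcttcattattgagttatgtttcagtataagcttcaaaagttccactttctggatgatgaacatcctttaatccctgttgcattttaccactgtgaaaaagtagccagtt
The Cd207 window held a PU.1 match 119 bases and an AP-1 match 7 bases before the start. The Dpp4 window held a PU.1 match 236 bases and an IRF match 52 bases before it, and the Clec9a window held none of the 5. Of 32851 RefSeq promoters, 10.6% held the PU.1 letters in such a window, 4.4% RUNX, 6.75% AP-1, 1.21% NF-κB and 2.98% IRF. Promoters were matched for 8 of the 10 genes, all but Cd24a and Relb. The Ly75 window had a RUNX match 200 bases, the Zbtb46 window an AP-1 match 61 bases and the Batf3 window a PU.1 match 153 bases before the start, and the Epcam and Xcr1 windows had none. The Zbtb46 window (chr2:181424389-181424638) lies inside the GENCODE span of its gene (chr2:181387762-181459426). So does the Batf3 window (chr1:191098164-191098413, span chr1:191097847-191108945), and the Ly75 window overlaps its gene in part. A match describes letters and not a bound site.

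The libraries held 12537178 to 19844113 counts each. In them 3 counts, the limit below which a gene cannot be told from absent, corresponded to 0.162 to 0.239 CPM, the unit used throughout, in which counts are divided by the TMM-adjusted library size. These limits cover counting error only, because reads were not counted as unique molecules. The sort was visible in the RNA. Ly6c2 was at 492 ± 113 CPM for classical monocytes and 17.5 ± 1.50 in resident-like macrophages (mean ± SD, n = 3, here and below), and Pdcd1lg2, which encodes PD-L2, was highest in late CMDMs at 32.2 ± 1.35. Macrophage genes were present in resident-like macrophages, with the complement gene C1qa at 1090 ± 47.3 CPM against 163 ± 50.2 in classical monocytes. The 10 leukocyte genes Ptprc, Coro1a, Laptm5, Cd53, Lcp1, Rac2, Itgb2, Arhgdib, Vav1 and Dock2 took up 0.471 to 0.491% of the counts in classical monocytes, 0.378 to 0.404% in resident-like macrophages, 0.254 to 0.285% in late CMDMs and 0.116 to 0.184% in early CMDMs. The 6 keratinocyte markers summed to 17100 to 27280 CPM for early CMDMs and to 1871 to 4050 CPM in the other 9 libraries. For this reason each direction was also checked after scaling by the leukocyte genes, a scale that shifts the median of all genes by a large amount in most comparisons. On that scale the median log2 fold change of all tested genes was 0.14 for resident-like macrophages against classical monocytes, -1.58 against early CMDMs and -0.65 against late CMDMs. It was 1.73 for early CMDMs and 0.77 for late CMDMs against classical monocytes, and -0.94 for late against early CMDMs. In bulk RNA, fewer cells of a type and less RNA per cell cannot be told apart.

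The Langerhans genes Cd207 and Ly75 were highest in resident-like macrophages in every comparison and on both scales, while the cDC1 gene Clec9a was highest in classical monocytes. Cd24a was highest in early CMDMs, and no difference in Xcr1 passed the test on the TMM scale. Against classical monocytes, resident-like macrophages had 6 of the 10 genes higher and 2 lower at an adjusted p under 0.05, where 23.7% of all tested genes were called, 10.8% higher and 12.9% lower. Against early CMDMs 7 were higher and 1 lower, beside 46.6% of all genes (21.4% higher and 25.1% lower), and against late CMDMs 8 were higher and 0 lower, beside 28.1% (12.7% higher and 15.4% lower). After leukocyte scaling 5 were higher and 1 lower than in classical monocytes, beside 9.6% and 7.46% of all tested genes. On that scale 2 were higher and 6 lower than in early CMDMs, beside 1.36% and 89.8%, and 4 were higher and 0 lower than in late CMDMs, beside 2.7% and 54%. The genes Cd207, Epcam, Ly75, Batf3 and Relb were higher in resident-like macrophages than in each of the other 3 fractions, a pattern of 3.56% of tested genes, and of these Cd207 and Ly75 kept it after leukocyte scaling. None of the 10 was lower there than in each other fraction (2.77% of tested genes). Dpp4 and Clec9a were higher in classical monocytes than in each other fraction (6.08%), and Cd24a in early CMDMs (11.2%). Late CMDMs had 0 such genes (3.56%). Zbtb46, Batf3 and Relb were lowest in early CMDMs (5.91%), Epcam in classical monocytes (3.01%) and Dpp4 in late CMDMs (1.32%), all by the same test and on the TMM scale. After leukocyte scaling Dpp4 was 0.16 and Zbtb46 1e-04, and Batf3 0.86 and Relb 1.14, in early CMDMs against classical monocytes, so that these orders did not hold there. The 3 comparisons share the resident-like libraries and are not independent.

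**Figure D1:**
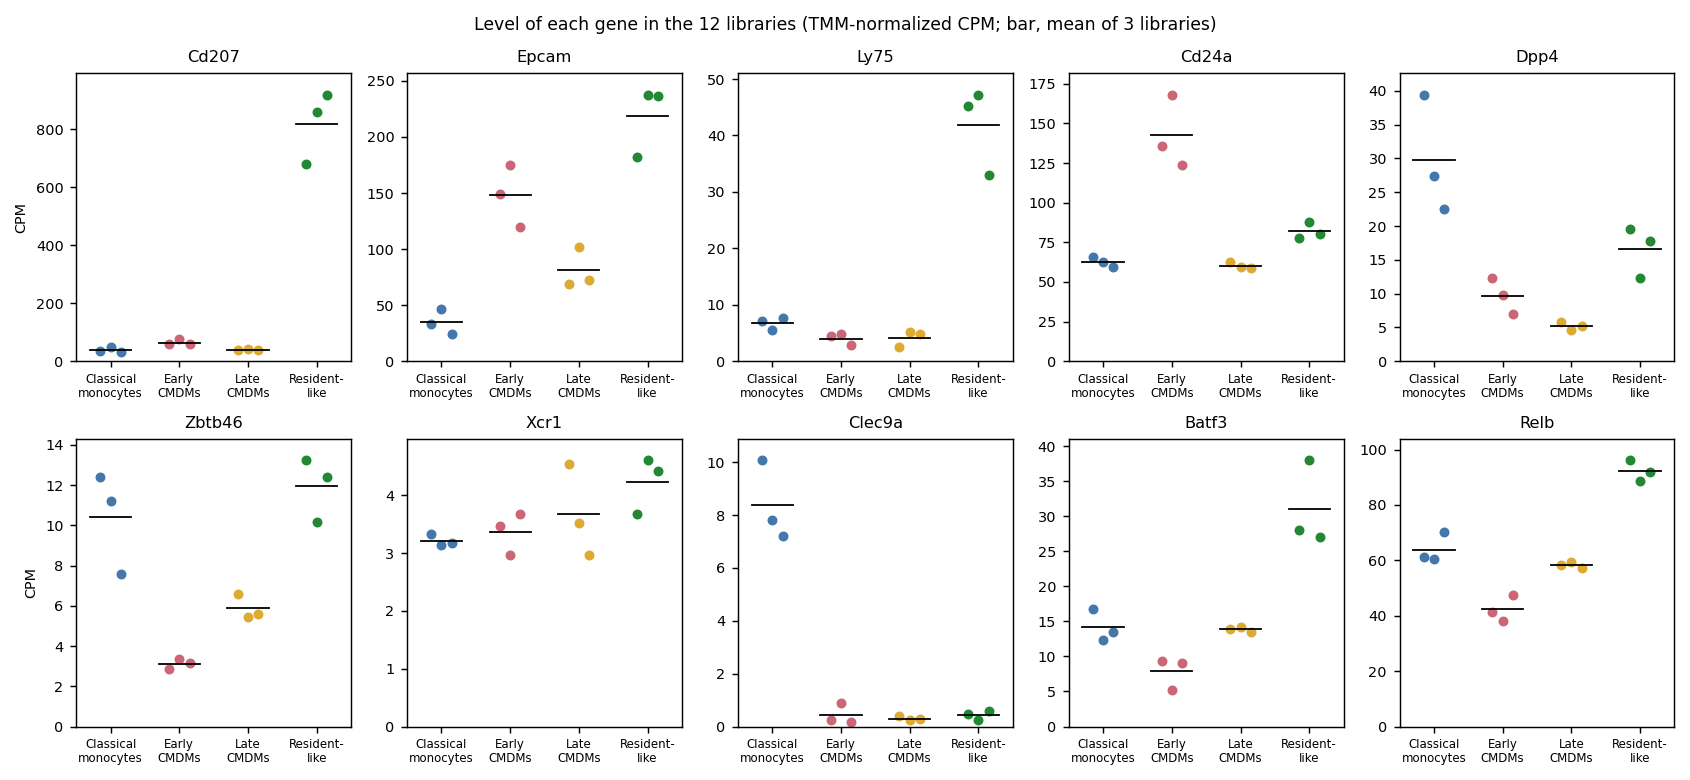
TMM-normalized CPM of each of the 10 genes (y axis, linear and from 0, a scale of its own per gene) in the 12 libraries, grouped by fraction (x axis). Points are libraries and bars are means of 3. Cd207 and Ly75 stand apart in resident-like macrophages, Clec9a in classical monocytes and Cd24a in early CMDMs, and no Xcr1 difference passed the test on this scale.

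Among the genes of Langerhans cells, Cd207 encodes langerin, the C-type lectin that gives these cells their granules. Its levels were 679, 859 and 920 CPM in resident-like macrophages, against 34.5, 48.8 and 31.1 CPM for classical monocytes, 58.7, 75.9 and 58.4 CPM for early CMDMs and 37.4, 42.9 and 37.2 CPM for late CMDMs. The lowest resident-like library lay far above the highest of the other 9, and classical monocytes and late CMDMs overlapped. Cd207 was 21.5-fold higher in resident-like macrophages than in classical monocytes (log2 fold change 4.42 ± 0.18 SE, adjusted p = 1.50e-10). It was 12.7-fold higher than in early CMDMs (3.67 ± 0.18, adjusted p = 6.89e-10) and 20.9-fold higher than in late CMDMs (4.39 ± 0.18, adjusted p = 3.95e-10). After leukocyte scaling the log2 fold changes were 4.56, 2.03 and 3.73, all still called. Early CMDMs were 1.69-fold above classical monocytes (0.75 ± 0.17, adjusted p = 0.00146), and late CMDMs did not differ detectably from classical monocytes (0.04, 95% interval -0.32 to 0.39).

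Ly75 encodes DEC-205, which takes up antigen for presentation. It was measured at 45.2, 47.3 and 33.1 CPM in resident-like macrophages and between 2.55 and 7.75 CPM in all other libraries. The groups did not overlap. The difference was 6.10-fold against classical monocytes (2.61 ± 0.22, adjusted p = 3.27e-07), 10.4-fold against early CMDMs (3.39 ± 0.23, adjusted p = 1.77e-08) and 9.88-fold against late CMDMs (3.30 ± 0.23, adjusted p = 7.30e-08), and 2.75, 1.74 and 2.65 on the log2 scale after leukocyte scaling. Ly75 was lower in late CMDMs than in classical monocytes (-0.69 ± 0.25, adjusted p = 0.0381), but 0.093 after leukocyte scaling, and this call was lost without classical monocyte library 1 (-0.65) or 3 (-0.59) and without late CMDM library 1 (-0.46) or 3 (-0.79). Its call in early CMDMs against classical monocytes (-0.78 ± 0.25, adjusted p = 0.0172) was lost without classical monocyte library 3 (-0.67) or early CMDM library 3 (-0.58), and the direction turned to 1.01 after leukocyte scaling. The antisense gene Gm13571 overlaps Ly75 and had 1 to 15 counts per library.

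Epcam encodes an adhesion molecule of Langerhans cells and of epithelium. Its levels were 182, 238 and 236 CPM in resident-like macrophages, 149, 175 and 120 CPM for early CMDMs, 69.0, 102 and 72.2 CPM for late CMDMs and 33.6, 46.5 and 24.1 CPM for classical monocytes. No fractions overlapped, but the lowest resident-like library stood close to the highest early CMDM library. Epcam was 6.30-fold higher in resident-like macrophages than in classical monocytes (2.65 ± 0.23, adjusted p = 1.52e-06) and 2.70-fold higher than in late CMDMs (1.43 ± 0.22, adjusted p = 0.000301), with 2.79 and 0.77 after leukocyte scaling, the second with an adjusted p of 0.0505. Against early CMDMs it was 1.48-fold higher (0.56 ± 0.22, adjusted p = 0.0474), but 1.10 lower on the log2 scale after leukocyte scaling (-1.10, adjusted p = 0.00485). The call of 0.56 on the TMM scale was lost without early CMDM library 1 (0.57) or 3 (0.44), without resident-like library 2 (0.50) or 3 (0.50), and with RLE factors, library size alone or no filter. Early CMDMs, the fraction with the most keratinocyte RNA, were 4.26-fold above classical monocytes in Epcam (2.09 ± 0.23, adjusted p = 4.98e-06).

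Cd24a encodes a small mucin-like surface protein of Langerhans cells, cDC1s and also keratinocytes. It was highest in early CMDMs on both scales, at 136, 168 and 124 CPM. It was at 77.5, 88.1 and 80.5 CPM in resident-like macrophages, 65.7, 62.4 and 59.2 CPM for classical monocytes and 62.7, 59.5 and 58.7 CPM for late CMDMs. Classical monocytes and late CMDMs overlapped and the other fractions did not. Cd24a was 1.74-fold lower in resident-like macrophages than in early CMDMs (-0.80 ± 0.11, adjusted p = 1.54e-05), a direction opposite to that of Cd207 in this comparison. It was 1.31-fold higher than in classical monocytes (0.39 ± 0.11, adjusted p = 0.0143), a call lost without resident-like library 2 (0.34), with library size alone (0.22, adjusted p = 0.156) and after leukocyte scaling (0.53, adjusted p = 0.0707). It was 1.36-fold higher than in late CMDMs (0.44 ± 0.11, adjusted p = 0.00622), but -0.20 after leukocyte scaling.

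The keratinocyte markers Krt5, Krt14, Krt1, Krt10, Krt15 and Dsp moved with Cd24a and in part with Epcam. All 6 were higher in early CMDMs than in classical monocytes and all 6 lower in resident-like macrophages and late CMDMs than in early CMDMs. Krt10, the most abundant, was at 11250 ± 2859 CPM for early CMDMs, against 1191 ± 127 for resident-like macrophages, 1319 ± 489 for classical monocytes and 1120 ± 58.9 for late CMDMs. Within early CMDMs the library with the highest keratinocyte sum, 27280 CPM, also had the highest Cd24a and Epcam. In resident-like macrophages, where Epcam was highest, the sum was 2298 to 2615 CPM and 0 of the 6 differed from classical monocytes by the edgeR test. The part of keratinocyte RNA in the levels of Cd24a and Epcam was not tested.

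**Figure D2:**
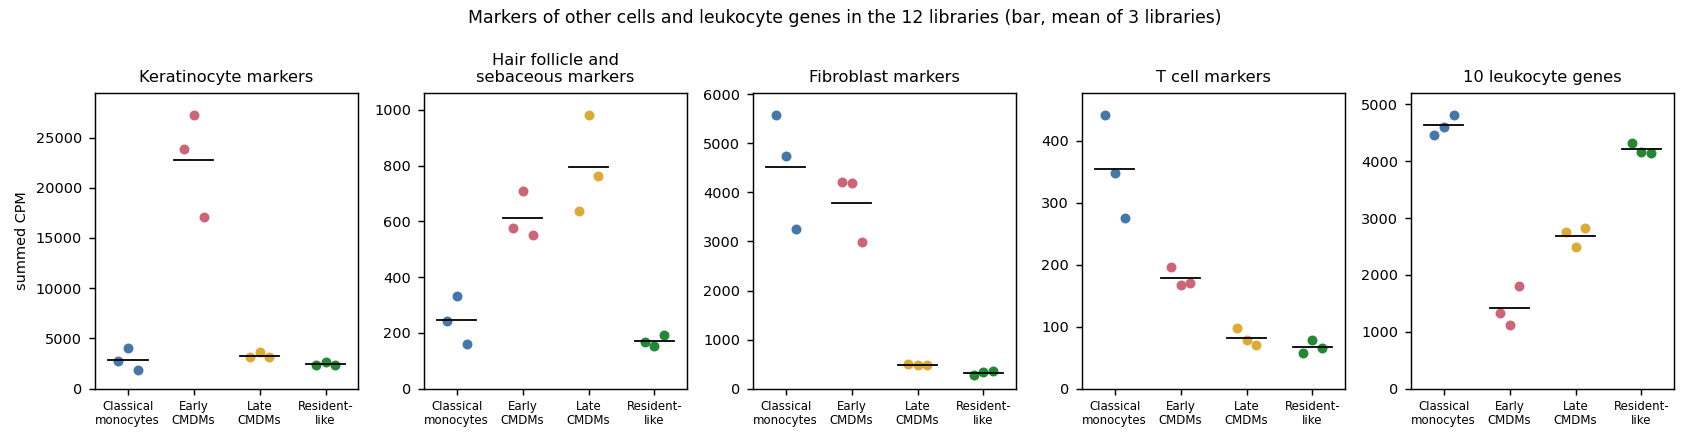
Summed TMM-normalized CPM (y axis, linear and from 0) of markers of other cell types and of the 10 leukocyte genes in the 12 libraries, by fraction (x axis). Points are libraries and bars are means of 3. Keratinocyte markers reach 17100 to 27280 CPM for early CMDMs, where the leukocyte genes are lowest, and T cell markers are highest in classical monocytes.

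Of the genes of cDC1s, Clec9a encodes DNGR-1, the receptor through which cDC1s sense dead cells, and is also known at a lower level in plasmacytoid dendritic cells of mice. It had 164, 142 and 129 counts in classical monocytes (10.1, 7.81 and 7.19 CPM) and 3 to 14 counts in each of the other 9 libraries. The classical monocyte libraries stood apart and the other fractions overlapped at a few counts, too few to order them. Clec9a was 18.6-fold lower in resident-like macrophages than in classical monocytes (-4.22 ± 0.35, adjusted p = 2.04e-07). It was 18.7-fold lower in early CMDMs (-4.22 ± 0.36, adjusted p = 9.67e-08; -5.19 without early CMDM library 2, which held 14 counts) and 27.4-fold lower in late CMDMs (-4.78 ± 0.39, adjusted p = 1.05e-07). After leukocyte scaling the values were -4.08, -2.48 and -4.00. Clec1b overlaps Clec9a on the same strand and had 4 to 20 counts per library, so that a share of the few counts outside classical monocytes is uncertain.

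Xcr1, the receptor for the chemokine XCL1 and the most restricted cDC1 gene of the 10, was low in every library. It had 44 to 76 counts per library, or 2.97 to 4.61 CPM. All fractions overlapped except classical monocytes (3.32, 3.14 and 3.18 CPM) and resident-like macrophages (3.67, 4.61 and 4.41 CPM), whose difference was small. Xcr1 was called in 0 of the 6 comparisons by edgeR, with an unadjusted p under 0.05 in resident-like macrophages against classical monocytes (0.39 ± 0.19, adjusted p = 0.151). DESeq2 and the other alternatives except leukocyte scaling gave adjusted p-values of 0.102 to 0.973. The 95% intervals of resident-like macrophages reached 0.79 above classical monocytes, 0.72 above early CMDMs and 0.61 above late CMDMs on the log2 scale. After leukocyte scaling 4 of the 6 comparisons were called for Xcr1, beside the shifts of all genes given above. Resident-like macrophages were at -1.26 against early CMDMs (adjusted p = 4.72e-05), early and late CMDMs at 1.79 (adjusted p = 3.08e-07) and 0.98 (adjusted p = 0.00188) against classical monocytes, and late against early CMDMs at -0.82 (adjusted p = 0.00645). The value against late CMDMs was -0.44 for resident-like macrophages (adjusted p = 0.132).

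The genes Clec9a and Xcr1, both cDC1 genes, had different patterns over the fractions. In resident-like macrophages, where Cd207 was highest, Clec9a was lower than in classical monocytes, and no rise in Xcr1 passed the test. Plasmacytoid dendritic cell and T cell genes moved with Clec9a. Of 7 plasmacytoid markers (Siglech, Tcf4, Spib, Ccr9, Cox6a2, Klk1 and Ly6d), 6 were lower in resident-like macrophages than in classical monocytes and 0 were higher. Spib, a transcription factor of these cells, was at 365 ± 152 CPM for classical monocytes and 8.48 ± 0.68 in resident-like macrophages. Ly6d, the most abundant of the list and also a keratinocyte gene, was highest in early CMDMs at 2040 ± 345 CPM. With it, the list summed to 1467 to 2272 CPM for classical monocytes, 1802 to 2479 in early CMDMs, 484 to 547 in late CMDMs and 384 to 472 in resident-like macrophages. Without Ly6d, a split made after the values were seen, the other 6 summed to 1043 to 2006 CPM for classical monocytes and 127 to 214 CPM in the other libraries. The classical monocyte library with the highest sum of these 6, library 1, also had the highest Clec9a. The 7 T cell markers were likewise all lower in resident-like macrophages than in classical monocytes, and summed to 276 to 442 CPM for classical monocytes, 167 to 197 in early CMDMs, 70.3 to 97.5 in late CMDMs and 56.7 to 78.7 in resident-like macrophages. Thy1, the most abundant T cell marker, had means of 28.2 CPM for resident-like macrophages, 59.5 for late and 158 for early CMDMs. The order of the sums outside classical monocytes was that of Thy1. Of the 7, 5 were higher in resident-like macrophages than in late CMDMs and only Thy1 lower (0 and 1 after leukocyte scaling). Against early CMDMs 3 were higher and only Thy1 lower (0 and 6). Thy1 alone was not called lower in early CMDMs than in classical monocytes. No marker of either list was at 0 in all libraries, and their part in the Clec9a result was not tested.

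**Figure D3:**
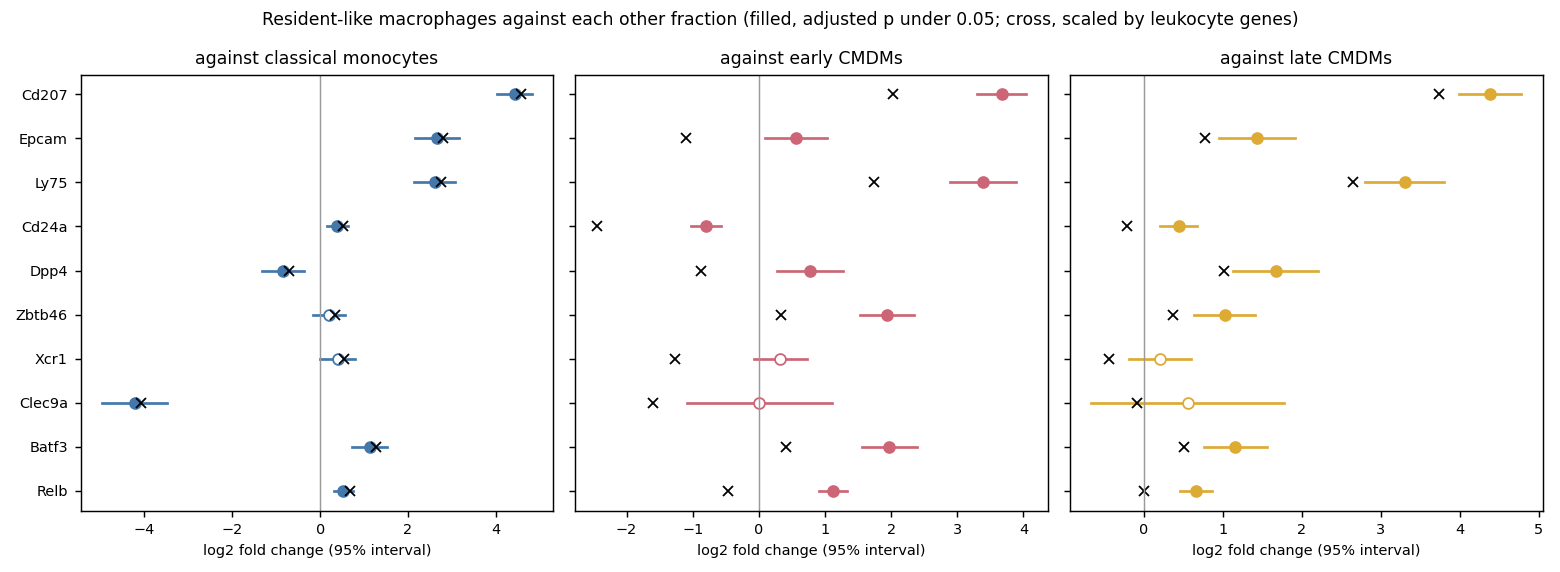
Log2 fold change of each gene in resident-like macrophages against each other fraction (x axis, with 95% intervals) from edgeR. Filled points are called at an adjusted p under 0.05, open points are not, and crosses are the values after leukocyte scaling, which turn the direction of Epcam, Dpp4, Xcr1, Clec9a and Relb against early CMDMs and of Cd24a, Xcr1 and Clec9a against late CMDMs. Clec9a has wide intervals against both CMDM fractions, where it had 3 to 14 counts.

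Batf3 and Relb are the transcription factors of the set that work in differentiation and maturation. Batf3, an AP-1 family factor required for cDC1s, was measured at 28.0, 38.0 and 27.0 CPM in resident-like macrophages, 16.8, 12.4 and 13.5 CPM for classical monocytes, 13.9, 14.2 and 13.6 CPM for late CMDMs and 9.40, 5.25 and 8.99 CPM for early CMDMs. Resident-like macrophages stood above all others, early CMDMs below all others, and the middle fractions overlapped. Batf3 was 2.18-fold higher in resident-like macrophages than in classical monocytes (1.13 ± 0.19, adjusted p = 0.000273; 1.26 after leukocyte scaling). It was 2.23-fold higher than in late CMDMs (1.16 ± 0.19, adjusted p = 0.000259; 0.51 after leukocyte scaling) and 3.93-fold higher than in early CMDMs (1.97 ± 0.20, adjusted p = 5.75e-07), the last falling to 0.40 with an adjusted p of 0.0813 after leukocyte scaling. Early CMDMs were lower than classical monocytes in Batf3 (-0.85 ± 0.20, adjusted p = 0.0024), a direction that turned to 0.86 after leukocyte scaling.

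Relb, the subunit of the non-canonical NF-κB pathway, was at 96.3, 88.6 and 91.9 CPM in resident-like macrophages, 61.1, 60.5 and 70.2 CPM for classical monocytes, 58.2, 59.5 and 57.2 CPM for late CMDMs and 41.4, 38.2 and 47.5 CPM for early CMDMs. No fractions overlapped, although classical monocytes and late CMDMs differed by less than the test could call (-0.13, 95% interval -0.34 to 0.08). Relb was 1.44-fold higher in resident-like macrophages than in classical monocytes (0.53 ± 0.10, adjusted p = 0.00067; 0.67 after leukocyte scaling). Against late CMDMs it was 1.58-fold higher (0.66 ± 0.10, adjusted p = 0.000102), but 0.01 after leukocyte scaling, and against early CMDMs 2.18-fold higher (1.12 ± 0.10, adjusted p = 1.38e-07), but -0.47 after leukocyte scaling. Relb and Batf3 had the most similar profiles of any pair of the 10 genes, with a Pearson r of 0.94 of log2 CPM over the 12 libraries.

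Zbtb46, the factor of committed cDC precursors and their progeny, overlapped between classical monocytes and resident-like macrophages. It was at 12.4, 11.2 and 7.58 CPM for classical monocytes, 13.3, 10.2 and 12.4 CPM in resident-like macrophages, 6.61, 5.47 and 5.60 CPM for late CMDMs and 2.85, 3.35 and 3.17 CPM for early CMDMs. The first pair of fractions overlapped (0.20, 95% interval -0.16 to 0.57, adjusted p = 0.468) and the CMDMs lay below both. Resident-like macrophages exceeded early CMDMs 3.83-fold (1.94 ± 0.19, adjusted p = 5.38e-07) and late CMDMs 2.04-fold (1.03 ± 0.18, adjusted p = 0.000534), but after leukocyte scaling the values were 0.33 and 0.37 and neither was called. Early CMDMs were 3.33-fold below classical monocytes (-1.73 ± 0.20, adjusted p = 2.09e-06), a difference of 1e-04 after leukocyte scaling.

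Dpp4 encodes CD26, a surface peptidase of cDC1s that T cells and fibroblasts also carry. On the TMM scale it was highest in classical monocytes, though not above early CMDMs after leukocyte scaling (0.16 for early CMDMs against them), at 39.5, 27.4 and 22.5 CPM, followed by 19.6, 12.4 and 17.8 CPM in resident-like macrophages, 12.4, 9.74 and 6.97 CPM for early CMDMs and 5.74, 4.68 and 5.26 CPM for late CMDMs. No fractions overlapped, but the lowest resident-like and the highest early CMDM library were almost equal. Dpp4 was 1.79-fold lower in resident-like macrophages than in classical monocytes (-0.84 ± 0.22, adjusted p = 0.0116), a call lost without classical monocyte library 1 (-0.58), without resident-like library 2 (-0.67) and after leukocyte scaling (-0.72). It was 3.18-fold higher than in late CMDMs (1.67 ± 0.25, adjusted p = 0.000157; 1.02 after leukocyte scaling). Against early CMDMs it was 1.71-fold higher (0.77 ± 0.23, adjusted p = 0.0135), but -0.88 after leukocyte scaling, and the call was lost without early CMDM library 3 (0.59), without resident-like library 1 (0.64) or with library size alone (0.61). Fibroblast markers were higher in classical monocytes as well: all 6 exceeded those of resident-like macrophages, with sums of 3254 to 5588 CPM and 276 to 358 CPM. These sums were 2988 to 4205 CPM for early CMDMs, where Dpp4 was low, and 478 to 499 CPM for late CMDMs. The part of fibroblast and T cell RNA in the Dpp4 level was not tested.

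The remaining comparisons set the steps from monocyte to macrophage side by side. Early CMDMs differed from classical monocytes in 9 of the 10 genes, 3 higher (Cd207, Epcam and Cd24a) and 6 lower (Ly75, Dpp4, Zbtb46, Clec9a, Batf3 and Relb), beside 44.9% of all tested genes (24.2% higher and 20.6% lower). After leukocyte scaling 7 were higher and 1, Clec9a, was lower, where 90.9% of all genes were higher and 2.07% lower. Late CMDMs differed from classical monocytes in 5, with Epcam higher and Ly75, Dpp4, Zbtb46 and Clec9a lower, beside 35.6% of all genes (18.1% higher and 17.5% lower), and had 6 higher and 2 lower after leukocyte scaling, where 62.9% of all genes were higher and 5.06% lower. All 6 hair follicle markers were higher in late CMDMs too (sums of 638 to 983 CPM against 160 to 331), among them Mgst1, the most abundant (0.85 ± 0.23), as were the keratinocyte genes Krt14 (0.58 ± 0.21) and Krt15 (1.39 ± 0.30), and no follicle marker was at 0 in all libraries. Their part in the Epcam level was not tested. Late CMDMs differed from early CMDMs in 7, with Zbtb46, Batf3 and Relb higher and Cd207, Epcam, Cd24a and Dpp4 lower, beside 31.9% of all genes (14.4% higher and 17.5% lower). After leukocyte scaling 0 were higher and 8 lower, where 0.719% of all genes were higher and 72.4% lower. The call of Dpp4 in late against early CMDMs (-0.90 ± 0.26, adjusted p = 0.0147) was lost without early CMDM library 1 (-0.69) or late CMDM library 2 (-0.82). The directions for Cd207, Epcam and Cd24a held on both scales in early CMDMs against classical monocytes and in late against early CMDMs.

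Per kilobase of exon, which allows levels of different genes to be compared, Cd207 led in resident-like macrophages with 538 ± 82.1 CPM per kb, followed by Epcam with 99.6 ± 14.5. Cd24a, Relb and Batf3 came next with 31.8 ± 2.12, 23.8 ± 0.99 and 19.4 ± 3.81 CPM per kb, of which the last pair overlapped within their SD. Ly75 (6.06 ± 1.11), Dpp4 (2.62 ± 0.59), Zbtb46 (1.41 ± 0.19), Xcr1 (0.950 ± 0.11) and Clec9a (0.133 ± 0.05) were lower. In classical monocytes Cd207 and Cd24a were alike at 25.1 ± 6.18 and 24.2 ± 1.28 CPM per kb, and Clec9a at 2.54 ± 0.46 exceeded Xcr1 at 0.721 ± 0.02. In early CMDMs Epcam at 67.4 ± 12.5 and Cd24a at 55.3 ± 8.93 CPM per kb were the highest, and overlapped within their SD.

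Genes whose profile over the 12 libraries was most like that of a member were taken by Pearson r of log2 CPM among tested genes at 5 CPM or more, as a description. They were P2rx2 (r = 0.996), an ATP-gated channel, and F830045P16Rik (0.996) for Cd207. P2rx2 was at 39.5 CPM in resident-like macrophages and 2.09 to 3.02 CPM in the other fractions. For Epcam they were Cldn1 (0.987), a tight junction gene, and Adgrg1 (0.982), and for Ly75 Tnks (0.986) and Ctnnd2 (0.982). For Cd24a they were Dkkl1 (0.993) and Prdx2 (0.986), and for Dpp4 Tmed3 (0.966) and Bzw2 (0.962). Clec9a was most like Il2rb (0.981), a cytokine receptor chain of T and NK cells at 138 CPM for classical monocytes and a mean of 4.75 to 6.60 CPM in each other fraction. Relb was most like Cd83 (0.992), a marker of dendritic cell maturation at 1531 ± 21.7 CPM in resident-like macrophages and 310 ± 41.3 in early CMDMs, and Prkcb (0.988). Batf3 was most like Tep1 (0.974) and Themis2 (0.967), and Zbtb46 like Olfr318 (0.980) and BC028528 (0.967). Xcr1 had the weakest best matches, Gm29681 (0.870) and Gm4017 (0.840).

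**Figure D4:**
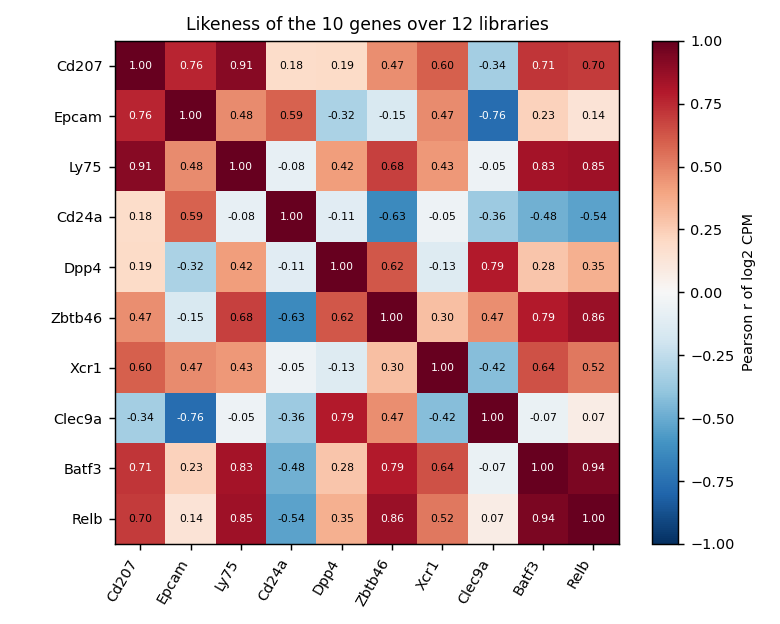
Pearson r of log2 CPM between each pair of the 10 genes over the 12 libraries (rows and columns are genes, colour and number are r). Batf3 and Relb (0.94) and Cd207 and Ly75 (0.91) are the most alike, and Epcam and Clec9a (-0.76) the most opposed. The points share fractions and depth, so that r is a description.

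The other genes of the same cell types were then counted from lists. Of 9 further Langerhans cell genes (Cdh1, Runx3, Id2, Tgfbr1, Tgfbr2, Axl, Ahr, Csf1r and Tgfb1), 3 were higher and 1 lower in resident-like macrophages than in classical monocytes, with a median log2 fold change of 0.14 beside 0.0011 for all tested genes. Csf1r, the receptor that Langerhans cells and macrophages need, was 0.87 ± 0.20 higher and Cdh1, the E-cadherin that anchors Langerhans cells to keratinocytes and is made by keratinocytes too, 0.97 ± 0.17 higher. The mean of Csf1r was highest in late CMDMs, at 865 CPM against 724 in resident-like macrophages, a difference that was not called (-0.26 ± 0.20). Cdh1 was highest in early CMDMs, the fraction with the most keratinocyte RNA, at 266 CPM against 106 in resident-like macrophages (-1.32 ± 0.17 for the latter). Runx3, a factor needed for Langerhans cells and also expressed in lymphocytes, was -1.16 ± 0.17 lower. Against late CMDMs 6 were higher and 1 lower (median 0.62 beside 0.0028), and 1 higher and 2 lower after leukocyte scaling. Axl, a TGF-β-induced receptor of Langerhans cells, was 1.24 ± 0.24 higher on the log2 scale (0.57 after leukocyte scaling) and Tgfbr2 -0.54 ± 0.13 lower. Late CMDMs had the lowest mean of Axl. Its mean in resident-like macrophages was below those in classical monocytes and early CMDMs. Neither of these differences was called on the TMM scale (-0.47 ± 0.22 against early CMDMs). Against classical monocytes 5 of the 9 were not called.

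Of 12 further cDC1 genes, 1 was higher and 3 were lower in resident-like macrophages than in classical monocytes (median -0.18). Of all tested genes 10.8% were higher and 12.9% lower. Naaa, a lipid hydrolase, was 1.24 ± 0.12 higher. Irf8, the lineage factor of cDC1s that plasmacytoid cells and monocytes also use, was at 391 ± 84.2 CPM for classical monocytes and 140 ± 10.3 in resident-like macrophages (-1.48 ± 0.19). Itgae, which encodes CD103, was lower (-2.09 ± 0.33), as was Cd8a (-4.81 ± 0.20), and T cells carry both. Against late CMDMs 6 were higher and 1, Tlr3, was lower (median 0.81), which became 2 higher and 4 lower after leukocyte scaling, where 54% of all genes were lower. Cadm1, an adhesion molecule of cDC1s, was 1.61 ± 0.21 higher there (0.95 after leukocyte scaling), and the difference from classical monocytes did not pass the test (-0.25, adjusted p = 0.416).

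The 10 cDC2 genes had 6 higher and 2 lower in resident-like macrophages than in classical monocytes (median 0.91) and 5 higher and 1 lower than in late CMDMs (median 0.94, with 4 higher and 4 lower after leukocyte scaling). Mgl2, a lectin of dermal cDC2s and of macrophages, was at 918 ± 65.1 CPM in resident-like macrophages, 198 ± 47.1 in late CMDMs, 103 ± 11.7 in classical monocytes and 72.5 ± 1.61 in early CMDMs. Cd209a, a DC-SIGN homologue of cDC2s and monocyte-derived dendritic cells, was at 555 ± 28.0, 134 ± 37.0, 141 ± 35.3 and 50.1 ± 1.41 CPM in the same order. Both were higher than in classical monocytes, by 3.16 ± 0.16 (Mgl2) and 1.98 ± 0.19 (Cd209a), and than in late CMDMs, by 2.21 ± 0.15 and 2.05 ± 0.19, or 1.55 and 1.39 after leukocyte scaling. Irf4, the cDC2 lineage factor, was 1.10 ± 0.12 higher than in classical monocytes and 1.25 ± 0.12 higher than in late CMDMs. Ltb, a lymphotoxin subunit, was -1.56 ± 0.16 lower than in classical monocytes.

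Genes shared by conventional dendritic cells split by comparison. Of 15, 3 were higher and 9 lower in resident-like macrophages than in classical monocytes (median -0.46), whereas 9 were higher and 0 lower than in late CMDMs (median 1.27, with 7 higher and 3 lower after leukocyte scaling). Itgax, which encodes CD11c, was higher than in both, by 1.51 ± 0.15 and 2.81 ± 0.16. Flt3, the growth factor receptor of dendritic cell precursors, which is named outside the rule for the genes of the lists because the lineage depends on it, was at 68.9 ± 10.7 CPM for classical monocytes, 27.0 ± 4.73 in resident-like macrophages, 10.4 ± 1.44 in late CMDMs and 5.18 ± 0.99 in early CMDMs. Btla, an inhibitory receptor of lymphocytes and dendritic cells, was at 21.4 ± 6.40 CPM for classical monocytes and 2.51 ± 0.27 in resident-like macrophages (-3.09 ± 0.20).

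All 8 MHC class II genes were higher in resident-like macrophages than in each of the other 3 fractions on both scales, beside median log2 fold changes of 1.60 against classical monocytes, 3.12 against early CMDMs and 2.91 against late CMDMs. Cd74, the invariant chain, was at 32470 ± 788 CPM in resident-like macrophages, 10180 ± 1894 in classical monocytes, 3758 ± 223 in early CMDMs and 4720 ± 762 in late CMDMs. The master regulator Ciita was 1.43 ± 0.13 higher than in classical monocytes and 2.69 ± 0.14 higher than in late CMDMs. The 13 tested genes of mature or migratory dendritic cells did not move one way. Against classical monocytes 4 were higher and 5 lower, with the chemokine genes Ccl22 (2.73 ± 0.23) and Ccl17 (3.22 ± 0.59) at the top and Cd200 (-1.78 ± 0.20) and Il4i1 (-1.32 ± 0.16) at the bottom. Late CMDMs had similar means of Ccl22 (23.6 against 22.8 CPM) and Ccl17 (9.40 against 7.77 CPM), and neither difference was called (-0.06 and -0.29). Against late CMDMs 5 were higher and 5 lower (2 and 7 after leukocyte scaling), with Cd83 1.27 ± 0.13 higher (0.61 after leukocyte scaling) and Fscn1, the actin bundler of mature dendritic cells, -1.17 ± 0.29 lower.

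Partners of Relb and Batf3 were read in the same way. Of 12 NF-κB subunits and non-canonical pathway genes, 4 were higher and 2 lower in resident-like macrophages than in classical monocytes (median 0.05), and 7 higher and 0 lower than in late CMDMs (median 0.44, with 2 higher and 4 lower after leukocyte scaling). Rel, the c-Rel subunit, was 0.52 ± 0.10 higher than in classical monocytes and 1.15 ± 0.10 higher than in late CMDMs. Map3k14, which encodes the kinase NIK upstream of Relb, was -0.46 ± 0.11 lower than in classical monocytes, and Traf3, its inhibitor, -0.55 ± 0.16 lower. Both of these calls were lost after leukocyte scaling (-0.32 and -0.41), where 4 of the 12 were higher and 0 lower than in classical monocytes. Of 7 AP-1 and IRF partners of Batf3, 6 were higher than in classical monocytes and only Irf8 was lower. Batf, the paralogue of Batf3, was at 91.0 ± 6.23 CPM in resident-like macrophages and 40.4 ± 2.32 in late CMDMs (1.17 ± 0.13, or 0.52 after leukocyte scaling). Jun was -0.37 ± 0.12 lower than in late CMDMs, where 3 of the 7 were higher and 1 lower (2 and 4 after leukocyte scaling).

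**Figure D5:**
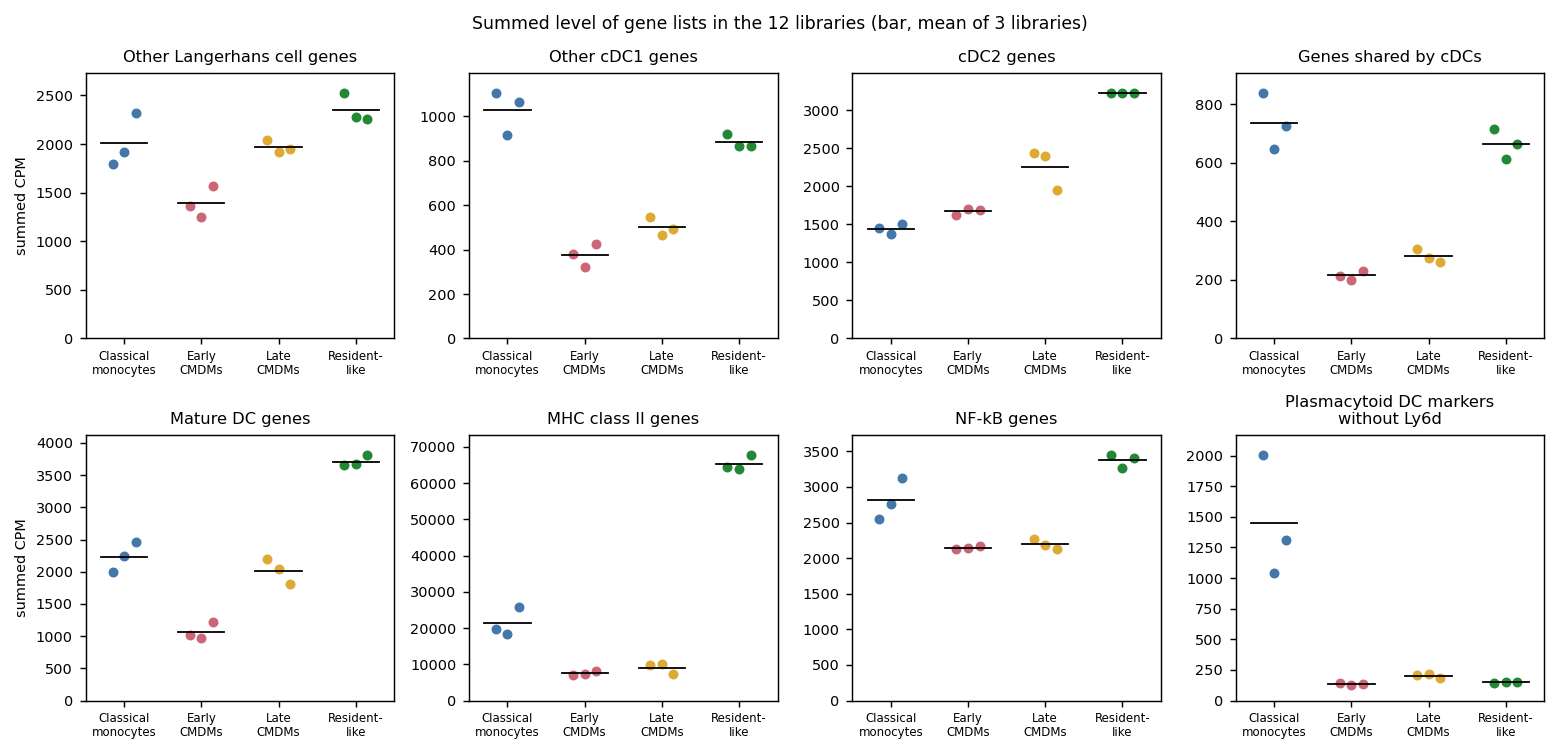
Summed TMM-normalized CPM (y axis, linear and from 0) of the gene lists in the 12 libraries, by fraction (x axis). Points are libraries and bars are means of 3. On this scale MHC class II, cDC2 and mature dendritic cell sums are highest in resident-like macrophages, and the 6 plasmacytoid markers without Ly6d in classical monocytes. The sums of cDC1 genes and of genes shared by cDCs are higher in both of these fractions than in CMDMs, again on this scale. After leukocyte scaling 1 of the 12 cDC1 genes was higher and 8 lower in resident-like macrophages than in early CMDMs. The counts were 4 and 4 of the 10 cDC2 genes, 6 and 5 of the 15 shared genes and 5 and 7 of the 13 mature genes. Of all tested genes 1.36% were higher and 89.8% lower.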

How the data were processed

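The deposited values are raw counts per gene symbol. The authors trimmed reads with cutadapt 4.1, mapped them to the GRCm38 reference RNA with Bowtie2 2.4.5 on one strand and summed reads of transcripts by symbol, so that reads of paralogs and of same-strand overlapping genes can be split. Unused columns numbered 0. All 12 libraries were fitted together in edgeR 4.0.16 (R 4.3.3) with TMM, filterByExpr by fraction, 1 coefficient per fraction, robust quasi-likelihood tests and Benjamini-Hochberg adjustment over 22118 genes at 0.05. The fit was tested on simulated data. SEs come from the log2 fold change and F. Levels are TMM-normalized CPM. Exon lengths and positions are from GENCODE M21, promoters from RefSeq (GRCm38.p6). Likeness used a prior count of 2. One gene most like Clec9a is not reported here. Between replicates, chi-square over degrees of freedom was 4.41 to 23.4, and no libraries were merged.

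The members and lists were chosen with earlier results of these data known, and no list is independent evidence. The genes named from the lists were the called genes with the 2 largest and 2 smallest changes against classical monocytes or late CMDMs, the most abundant marker of a cell type and genes of the sort. Some values outside that rule were chosen after they had been seen. They were those of Flt3, Krt14 and Krt15, and of Cadm1 and Axl against classical monocytes. The others were Cdh1 and Axl against early CMDMs, and Csf1r, Ccl17 and Ccl22 against late CMDMs. Markers of hair follicle, lymphatic endothelium, B cells, neutrophils, basophils and mast cells, monocytes and macrophages were counted as well. Alternatives were DESeq2 1.42.0, RLE factors, library size only, TMM without genes over 1% of counts, leukocyte scaling, no filter, at least 10 counts in every library, fits of 6 libraries, a replicate block, an adjusted p under 0.01, a log2 fold change of at least 1 and leaving out each library.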

Additional observations from a re-analysis of the deposited data

How the results depend on the processing

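The number of the 10 genes called was within 1.5 times the reported one under DESeq2, RLE factors, library size alone, TMM without the most abundant genes, both other filters, fits of 6 libraries and an adjusted p under 0.01. Asking also for a log2 change of 1 or more, it was 5 for resident-like macrophages against classical monocytes, 5 against early CMDMs, 5 for early CMDMs against classical monocytes, 3 for late CMDMs against classical monocytes and 1 for late against early CMDMs. Leaving out each library gave 6 to 8, 6 to 8 and 8 to 8 for resident-like macrophages against classical monocytes, early and late CMDMs, 8 to 9 for early and 4 to 5 for late CMDMs against classical monocytes, and 6 to 7 for late against early CMDMs.

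Leukocyte scaling changed most, by its construction, since it shifts all genes of a comparison together. Calls for resident-like macrophages against late CMDMs went from 8 to 4, those for late CMDMs against classical monocytes from 5 to 8, and called Langerhans cell list genes in the former from 7 to 3. The genes with the highest mean in resident-like macrophages went from 7 to 4 when levels were taken relative to leukocyte counts. Directions turned for resident-like macrophages against early CMDMs in Epcam (-1.10), Dpp4 (-0.88), Xcr1 (-1.26), Relb (-0.47) and Clec9a (-1.60), and against late CMDMs in Cd24a (-0.20), Xcr1 (-0.44) and Clec9a (-0.083). In early CMDMs against classical monocytes they turned in Ly75 (1.01), Dpp4 (0.16), Zbtb46 (1e-04), Batf3 (0.86) and Relb (1.14), and in late CMDMs against classical monocytes in Ly75 (0.093), Cd24a (0.73), Batf3 (0.75) and Relb (0.66). In late against early CMDMs they turned in Ly75 (-0.91), Zbtb46 (-0.045), Xcr1 (-0.82), Batf3 (-0.10) and Relb (-0.48). Uncalled values near 0 also changed sign for late CMDMs against classical monocytes, Cd207 with library size alone (0) and without classical monocyte library 1 or 3 or late CMDM library 2 (range on leaving out each library -0.088 to 0.26) and Batf3 without classical monocyte library 1 (-0.12 to 0.11), and for late against early CMDMs Xcr1 without late CMDM library 1 (-0.051 to 0.25), Ly75 without early CMDM library 3 or late CMDM library 2 or 3 (-0.11 to 0.32) and Clec9a without early CMDM library 2 (-0.91 to 0.42). Clec9a, at a few counts, changed sign for resident-like macrophages against early CMDMs with DESeq2 (-6e-04), library size alone (-0.15), no filter (-0.001) and on leaving out 4 libraries in turn (-0.34 to 0.98). Over all values of single genes, 39 reversed, 30 lost and 4 gained a call, and 818 did neither.

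Over all tested genes, leukocyte scaling called 20155 against 10297 for resident-like macrophages against early CMDMs (300 higher and 19855 lower, against 4736 and 5561) and 12551 against 6225 against late CMDMs (597 higher and 11954 lower, against 2808 and 3417). Against classical monocytes it called 3773 (2124 higher and 1649 lower) where TMM called 5251 (2399 and 2852). It called 20568 against 9925 for early and 15025 against 7869 for late CMDMs against classical monocytes, and 16183 against 7045 for late against early CMDMs. A log2 change of 1 or more left 2272, 4683, 2297, 4427, 3149 and 2631 of the 5251, 10297, 6225, 9925, 7869 and 7045 called, in the order resident-like macrophages against classical monocytes, early and late CMDMs, early and late CMDMs against classical monocytes, and late against early CMDMs. An adjusted p under 0.01 left 3427 of the first and 3826 of the third.

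The replicate numbers gave same-number correlations of -0.10 to 0.25, of which 4 of 18 were over 0.1 and in no comparison all 3, so that the numbers were not treated as pairs. With the replicate number as a block the counts of the 10 genes were 8, 8, 8, 9, 5 and 7 in that order, the same as without it, and all-gene calls were 5728, 10656, 6799, 10322, 8440 and 7565. Samples that correlated best with their own number were 2, 4, 6, 6, 4 and 5 of 6 in the 6 comparisons, a hint from the data and not from the design. Depth limits Clec9a outside classical monocytes (3 to 14 counts) and Xcr1 (44 to 76 counts).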

Other observations

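Markers of further cell types were read in resident-like macrophages against classical monocytes with the same edgeR test. Of 12 macrophage markers 4 were higher and 1 lower, and of 8 monocyte markers 0 were higher and 5 lower. Of 5 tested neutrophil markers 1, Retnlg, was higher (log2 fold change 4.02, adjusted p = 2.23e-09) and 2 were lower, and the list summed to 52.0 to 59.4 CPM in resident-like macrophages and 18.0 to 43.7 CPM in the other libraries. Of 4 tested basophil and mast cell markers 1, Ms4a2, was higher, with list sums of 25.8 to 40.5 CPM in resident-like macrophages and 5.39 to 23.9 CPM elsewhere. Among 2 tested B cell markers 0 were called by edgeR, and 0 had an unadjusted p under 0.05. The 6 lymphatic endothelial markers had 0 calls there, but all 6 were lower than in late CMDMs, where they summed to 287 to 368 CPM against 68.4 to 80.8 CPM in resident-like macrophages. The part of these cells in the levels of the 10 genes was not tested.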
